A study of Mus musculus with 2 samples.

Results

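The histone genes of mouse effector CD8+ T cells are described here, in cells kept in full glucose and in cells kept in low glucose. Every gene symbol that begins with Hist1h to Hist4h, H2af, H3f3 or H1f was taken, which gave 85 of the 27998 gene rows. Of these, 69 are replication-dependent histone genes (the Hist symbols), 15 are replacement histone genes and 1 is an antisense RNA, H3f3aos. The replication-dependent genes comprise 6 linker (H1) genes and 63 core genes, namely 19 H2A, 19 H2B, 12 H3 and 13 H4 genes. The replacement genes comprise 4 linker and 11 core genes. H3f3aos had 10 UMIs (unique molecular identifiers, each standing for 1 captured message) in control and 13 in TGR and was left out of all sums, because it lies over H3f3a and the sources used here do not state a strand setting of the counting.

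The cells came from spleens and lymph nodes of OT-I mice aged 8 to 12 weeks, whose transgenic T cell receptor recognises an ovalbumin peptide. Both groups were activated with that peptide, SIINFEKL, for 48 h in 100 U/ml IL-2, and then had 20 h in medium with IL-2. The control group had 11 mM glucose and the TGR group (transient glucose restriction) had 1 mM glucose. The sample descriptions name 3 days of growth, and no source used here says how many mice were pooled or whether full glucose was given back before capture. There was 1 library per group, so no difference below has a replicate check, no test of the conditions was possible, and every interval covers counting error only.

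Nucleosomes wrap DNA around core histones H2A, H2B, H3 and H4, and linker histone H1 binds where the DNA enters and leaves. The replication-dependent genes supply histones for newly copied DNA in S phase; their messages usually end in a stem-loop bound by the protein SLBP and carry no poly(A) tail. Replacement histones such as H2A.Z and H3.3 are made throughout the cell cycle from ordinary polyadenylated messages. The 10x libraries prime on poly(A), so an untailed histone message is largely outside this measurement. The UMIs of Hist genes therefore count messages that did carry a tail or were primed elsewhere, and they are not the amount of histone message in the cell. Compared between genes, the values are counts at the message end and are not per length.

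The stem-loops of the members that the results turn on are shown because the end of the message bears on what poly(A) priming can see. Each was found by a search of the annotated transcripts (GENCODE M21, GRCm38) for the histone stem-loop, in 3 forms that differ in the paired bases, on the sense strand. Capitals mark the match, that is the paired stem with the loop between, and lower case the annotated bases next to it.
Hist1h1a: cccaacGGCTCTTTTCAGAGC
Hist1h1c: ccaaaaGGCTCTTTTCAGAGCcaccact
Hist1h1d: tcaaacGGCTCTTTTCAGAGCcacccac
Hist1h1e: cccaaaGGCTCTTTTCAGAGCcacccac
Hist1h2ap: aaaaaaGGCTCTTTTCAGAGCcatc
Hist1h4d: accaaaGGCCCTTTTCAGGGCcactacc
Hist1h4i: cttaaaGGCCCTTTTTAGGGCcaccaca
Hist3h2ba: cccaaaGGCTCTTTTCAGAGCcaccttc
H2afx: cacaaaGGCCCTTTTAAGGGCcaccacc
Of these genes, Hist1h1a (chr13:23763666-23764406, plus strand), Hist1h1c (chr13:23738808-23740367, plus), Hist1h1d (chr13:23553262-23560686, plus) and Hist1h1e (chr13:23620629-23622558, minus) encode linker histones. Hist1h2ap (chr13:21833026-21833507, minus) encodes an H2A, and Hist1h4d (chr13:23581598-23582735, plus) and Hist1h4i (chr13:22040636-22041362, minus) encode H4. Hist3h2ba lies at chr11:58948920-58949533 (plus) and H2afx at chr9:44334694-44336077 (plus). A stem-loop was found in 45 of the 67 replication-dependent members that the annotation holds, in 1 of 15 replacement members (H2afx) and in 56 of 21901 protein-coding genes (0.256%). In Hist1h1a the annotated transcript ends with the loop itself, whereas those of Hist1h1c, Hist1h1e, Hist1h4d and Hist1h4i run on for 841, 1154, 771 and 331 bases. The longest run of A in the annotated transcript of Hist1h2ap is 12 bases, and whether priming took place within a transcript was not tested. No match in Hist1h1b says only that these letters are not in its annotated transcript of 743 bases. The replication-dependent members lie on chromosome 13 (53), chromosome 3 (11), chromosome 11 (2) and chromosome 6 (1).

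Cells with at least 500 genes and under 10% mitochondrial UMIs were kept, which left 3127 of 3336 control and 2546 of 2548 TGR barcodes, with medians of 4030 and 6266 UMIs. The labels name about 5000 cells loaded and 3000 recovered per channel. In the kept cells 7 measured CD8 T cell markers summed to 2992 and 2341 CPM (UMIs per 1000000 UMIs of the library), and 99.1% of control and 99.9% of TGR cells had at least 2 UMIs of them. The markers of dendritic and erythroid cells were at or near 0, those of B, NK and stromal cells summed to between 5.08 and 29.2 CPM, and those of myeloid cells to 123 and 61.9 CPM, nearly all Cst3. Only 11 barcodes occurred in both libraries, and 9 of them were kept in both. Doublets were not called and were left in. Ribosomal protein genes took 37.9% of control and 47.0% of TGR UMIs, which lowers the CPM of every other gene in TGR. Over the 6667 genes that reached 10 CPM in one library or the other, the median log2 ratio of TGR over control was −0.16; totals without ribosomal protein and mitochondrial genes shifted that median by 0.23.

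The linker histone genes included the most abundant replication-dependent members, and the 5 that were detected were lower in the TGR library. Summed, they went from 372 CPM (5477 UMIs) in control to 92.8 CPM (1828 UMIs) in TGR, 4.01-fold lower with a counting interval of 3.80 to 4.23. Hist1h1e, which encodes a main H1 of somatic cells, was at 135 CPM in control against 36.4 in TGR, 3.71-fold lower (3.41 to 4.05). Hist1h1b was at 132 and 26.0 CPM, 5.05-fold lower (4.58 to 5.58). These leading H1 genes had similar counts in control, and in TGR Hist1h1b had fewer. Hist1h1d was at 29.2 and 5.99 CPM, 4.87-fold lower (3.97 to 6.03). Hist1h1a was at 28.4 and 4.16 CPM, 6.82-fold lower (5.37 to 8.75). Hist1h1c differed least of these, at 47.8 and 20.3 CPM, 2.36-fold lower (2.08 to 2.67). Hist1h1t, the testis-specific H1, had 0 UMIs in both libraries, which allows up to 0.204 CPM in control against 0.152 in TGR.

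The core replication-dependent genes were lower as well, by 2.82-fold in sum (401 CPM and 5911 UMIs in control, 142 CPM and 2799 UMIs in TGR; interval 2.70 to 2.95). By histone, H2A messages were 3.94-fold lower (3.64 to 4.26), H3 2.90-fold (2.55 to 3.31), H2B 2.58-fold (2.33 to 2.85) and H4 1.996-fold (1.84 to 2.16). The intervals of H2B and H3 overlapped, whereas H2A lay above and H4 below both. Hist1h2ap held 54.8% of the H2A UMIs in control, with 1388 UMIs (94.2 CPM) against 429 (21.8 CPM) in TGR, 4.33-fold lower (3.88 to 4.83). It shares 93.1% of its 50-base words with other genes' transcripts, so its UMIs cannot be assigned to this copy alone. Hist1h4i, the leading H4 gene, was at 46.4 and 25.7 CPM, 1.80-fold lower (1.61 to 2.03), and Hist1h4d was at 26.2 and 10.2 CPM, 2.58-fold lower (2.17 to 3.08). The other 7 core genes past 10 CPM were Hist1h2ae, Hist1h2ak, Hist2h2ac, Hist1h2bj, Hist1h2bm, Hist1h3a and Hist1h3c. They lay between 11.3 and 22.3 CPM in control and between 1.73 and 5.23 CPM in TGR, and were from 2.52-fold (Hist1h3c) to 7.24-fold (Hist1h2bm) lower.

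In all, 15 replication-dependent members reached 10 CPM in either library, 9 of them only in control. A gene was called lower or higher where it was at least 1.5-fold apart with an interval excluding 1. All 15 were called lower and 0 higher, beside 21.9% of all genes called lower and 9.33% called higher. Since the 9 passed the minimum only through the library where they were high, the count without a minimum is the fairer description. Of 69 members, 65 had a UMI, 45 were called lower and 2 higher without a minimum, beside 12.5% and 11.1% of all genes with a UMI. The 54 members under 10 CPM in both libraries summed to 123 CPM in control against 59.0 in TGR, which was 15.9% and 25.1% of the replication-dependent UMIs. The 2 higher ones, named after their values were seen, were Hist3h2ba and Hist3h2a, which neighbour each other on chromosome 11. Hist3h2ba, an H2B gene, had 81 UMIs (5.50 CPM) in control against 180 (9.14 CPM) in TGR, which is 1.66-fold higher (1.27 to 2.19). Hist3h2a, an H2A gene, had 35 UMIs (2.38 CPM) and 91 (4.62 CPM), 1.94-fold higher (1.30 to 2.96). Hist1h2ba, Hist1h2bq and Hist1h2br had 0 UMIs, as Hist1h1t did. More than 50% of the 50-base words of 33 replication-dependent members occur in other genes too, and the sources used here do not give how reads of such copies were counted.

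**Figure D1:**
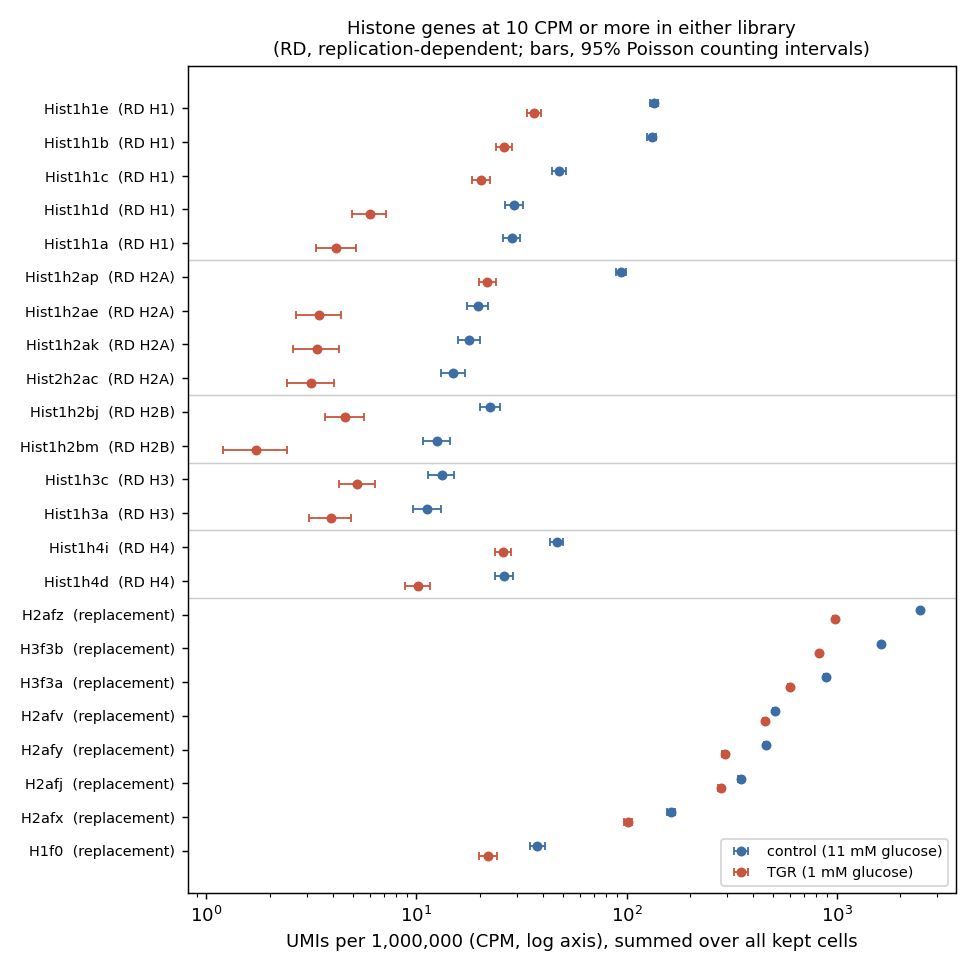
Level of each histone gene past 10 CPM in one library or the other, in CPM on a log axis; blue points are control, red points TGR, bars are 95% Poisson counting intervals, and there is 1 library per condition. The TGR point lies left of the control point for all 15 replication-dependent and 8 replacement genes, closest for H2afv (508 and 454 CPM).

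Captured UMIs of replacement histone genes were far more numerous and differed less. Because untailed messages are largely outside the measurement, shares between the classes are of captured UMIs and not of histone message. Their sum was 6514 CPM (95953 UMIs) in control and 3555 CPM (70027 UMIs) in TGR, 1.83-fold lower (1.81 to 1.85). The replication-dependent sum was 773 CPM (11388 UMIs) and 235 CPM (4627 UMIs), 3.29-fold lower (3.18 to 3.41). On the log2 scale the 2 classes were at −0.87 and −1.72, a difference of −0.84 (−0.90 to −0.79) that does not depend on the library total. Replication-dependent UMIs were 10.6% (10.4 to 10.8%) of all histone UMIs in control and 6.20% (6.03 to 6.37%) in TGR. Counted per cell rather than as CPM, over cells of all phases, the replacement UMIs were 30.7 and 27.5, and the replication-dependent UMIs 3.64 and 1.82. Within the replication-dependent class, linker genes were 0.50 further down than core genes (−0.60 to −0.40), from log2 ratios of −2.002 and −1.497. Without the most abundant member of each sum that difference was −0.72, and in cells of 3000 to 8000 UMIs only it was −0.36.

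Of the 15 replacement members, 11 had a UMI and 8 reached 10 CPM, all of them in both libraries. Of the 8, 5 were called lower and 0 higher, beside the same 21.9% and 9.33%. H2afz, which encodes the H2A.Z found at promoters, was the most abundant, at 2481 CPM in control against 979 in TGR, 2.53-fold lower (2.49 to 2.58). H2afv, the other H2A.Z gene, was at 508 and 454 CPM, 1.12-fold lower (1.08 to 1.15), and its log2 ratio of −0.16 became 0.07 with totals that leave out ribosomal protein and mitochondrial genes. H2afv was thus 17.0% of the UMIs of the H2A.Z genes in control and 31.7% in TGR. Of the genes of histone H3.3, H3f3b was at 1623 and 827 CPM, 1.96-fold lower (1.92 to 2.003), and H3f3a at 890 and 596 CPM, 1.49-fold lower (1.45 to 1.53). H3f3a made up 35.4% of the H3.3 UMIs in control and 41.9% in TGR.

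Among the other replacement H2A genes, H2afy, the macroH2A1 gene, was at 461 and 293 CPM, 1.57-fold lower (1.52 to 1.63). H2afx, whose product is phosphorylated at DNA breaks, was at 163 and 102 CPM, 1.60-fold lower (1.51 to 1.70), and H2afj was at 350 and 281 CPM, 1.24-fold lower (1.198 to 1.29). The replacement linker gene H1f0, a gene typical of resting and differentiated cells, was at 37.6 and 21.9 CPM, 1.72-fold lower (1.51 to 1.95). With totals that leave out ribosomal protein and mitochondrial genes, 2 of the 8 were called lower (H2afz and H3f3b). The 15 replication-dependent members all were, beside 12.6% of all scored genes (843 of 6667). Under that total 58.8% of all called genes were higher, against 29.9% with all UMIs. Below 10 CPM, H1fx had 9 and 14 UMIs, H1foo 0 and 2, and H2afy2 0 and 1. H1fnt, H2afb1, H2afb2 and H2afb3 had 0 UMIs.

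Cells were called G1, S or G2/M from 43 S phase and 54 G2/M genes, none of them a histone gene, after each cell was thinned to 1500 UMIs; 91 control cells were too shallow. In control 5.67% of cells were called G1, 39.0% S and 55.3% G2/M, and in TGR 43.6%, 36.1% and 20.2%. Of these cells 118 in control and 285 in TGR had a highest score within 0.02 of the limit between G1 and the others. The lists behind the calls were themselves lower in TGR, with 19 of 42 S phase genes called lower and 0 higher, and 44 of 52 G2/M genes called lower and 1 higher, beside 21.9% and 9.33% of all genes. In control only 172 cells with a median of 2879 UMIs were called G1, against 1111 with 5279 in TGR, so control G1 values are the least certain.

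As CPM, the sums of both classes were lower in TGR in each phase. Among cells called S, the replication-dependent sum was 3.11-fold lower in TGR (log2 −1.64, −1.71 to −1.56) and the replacement sum 1.71-fold lower (−0.77, −0.79 to −0.75). All 15 replication-dependent members past 10 CPM in S cells were called lower and 0 higher, beside 20.8% of all genes lower and 11.1% higher, but 9 of the 15 passed that minimum only through control. Without a minimum, 34 of the 65 members with a UMI in S cells were called lower and 1 higher, beside 11.8% and 9.9% of all genes. Among cells called G2/M, the log2 ratios were −1.28 and −0.69, and 14 of 15 were called lower and 0 higher, beside 22.1% and 12.8%, with 8 of the 15 scored only through control. Without a minimum it was 30 of 64 lower and 2 higher, beside 12.7% and 11.1%. Among cells called G1 they were −1.81 and −0.85, and 9 of 10 were called lower and 0 higher, beside 16.5% and 4.75%, with 6 of the 10 scored only through control. Without a minimum it was 18 of 57 lower and 0 higher, beside 8.78% and 2.64%. With phases called on unthinned cells the G1 ratio of the replication-dependent sum was −1.14.

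Counted per cell within a phase, the replacement class was near level between the libraries in G1, and its direction turned in S and G2/M. TGR cells also had more UMIs in all within each phase, and no interval was computed for the per-cell values. Replacement UMIs per cell were 18.7 in control against 18.9 in TGR in G1, 29.4 against 31.4 in S and 34.0 against 39.1 in G2/M, which is 1.01-fold, 1.07-fold and 1.15-fold higher in TGR. Replication-dependent UMIs per cell were lower in TGR in each phase, at 1.96 and 1.02 in G1, 3.57 and 2.09 in S, and 4.00 and 3.05 in G2/M. Of the replication-dependent histones, H4 was 1.17-fold higher per cell in TGR in G2/M (0.507 and 0.592 UMIs), and H2A, H2B and H3 were lower per cell in each phase. As CPM, linker genes were further down than core genes in S (−1.95 and −1.38), in G2/M (−1.52 and −1.09) and in G1 (−2.14 and −1.56). Linker UMIs made up 47.2 to 49.3% of replication-dependent UMIs in the 3 control phases and 38.7 to 39.9% in the 3 TGR phases. When TGR phase levels were weighted by the control phase mix, an alternative added after the data were seen, the replication-dependent log2 ratio was −1.42 in place of −1.72 and the replacement ratio −0.72 in place of −0.87. The phase mix moved with the condition, and its part in the differences is described by these values only.

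**Figure D2:**
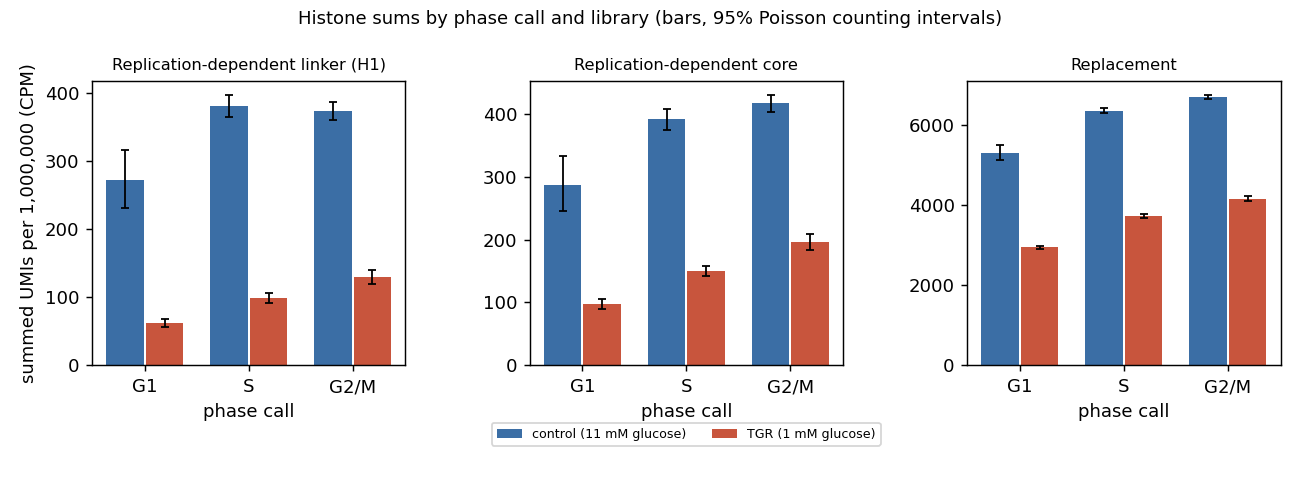
Summed CPM of replication-dependent linker, replication-dependent core and replacement histone genes, by phase call (horizontal axis) and library (blue control, red TGR); bars carry 95% Poisson counting intervals and axes start at 0. In each panel and phase the TGR bar is the shorter, and the G1 bar is the lowest of each library.

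Within each library the replication-dependent sum was higher in S than in G1. S cells over G1 cells had a log2 ratio of 0.47 (0.31 to 0.63) in control and 0.65 (0.54 to 0.75) in TGR. These values depend on how phases are called: on unthinned cells they were 1.28 and 0.82, and with a gap left between S and G1 scores 1.30 and 0.88. The replacement sum was also higher in S than in G1, by 0.26 (0.21 to 0.31) in control and 0.34 (0.31 to 0.36) in TGR. G2/M cells were level with S cells in control for the replication-dependent sum (S over G2/M −0.03, −0.09 to 0.02) and higher than S cells in TGR (−0.39, −0.49 to −0.29). At 1.5-fold, 5 of 16 members past 10 CPM were higher in S than in G1 in control, beside 5.1% of all genes, and 3 of 7 in TGR, beside 8.48%; 6 of the 16 and 3 of the 7 were scored only through S. In TGR 0 of the 7 were lower in S, beside 1.51% of genes. Without a minimum, 5 of 62 were higher and 2 lower in control, beside 2.72% and 2.74% of all genes, and 12 of 64 were higher and 2 lower in TGR, beside 6.58% and 1.75%. With the minimum, those higher in control were Hist1h1b, Hist1h1e, Hist1h2ap, Hist1h4d and Hist2h2ac (1 UMI in G1), and those in TGR Hist1h1b, Hist1h2ap and Hist1h4d. On unthinned calls Hist2h2ac in control went from 9.47-fold to 1.97-fold (0.52 to 16.6) and was no longer called, whereas Hist1h1a, Hist1h2ae and Hist1h4i, with 2, 0 and 7 UMIs in G1, were. Hist3h2ba was the 1 member lower in S than in G1 in control (4.19 and 16.6 CPM), beside 4.07% of genes, resting on 10 UMIs in G1.

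Hist1h1b had the largest step of the TGR members called higher in S, from 5.49 CPM in G1 to 32.0 CPM in S and 46.7 CPM in G2/M. That is 5.82-fold from G1 to S (4.14 to 8.39), against 1.58-fold (1.19 to 2.13) in control, where it was at 86.1, 136 and 132 CPM; on unthinned calls the folds were 9.48 and 3.66. Hist1h2ap was at 7.88, 23.7 and 39.1 CPM over the TGR phases and at 51.3, 91.1 and 100 CPM over the control phases; its folds from G1 to S were 3.01 and 1.78, and 5.60 and 3.35 on unthinned calls. Hist1h1c was nearly level in TGR, at 21.5, 18.6 and 21.1 CPM, and in control, at 44.7, 47.2 and 48.3 CPM. Hist1h1e was intermediate in TGR, at 28.9, 37.6 and 45.3 CPM. The linker messages (Hist1h1a to Hist1h1e and H1f0) were thus made up differently in G1 cells, where Hist1h1b was 30.8% (23.9 to 38.3%) of linker UMIs in control and 6.55% (4.70 to 8.85%) in TGR. H1f0 was 2.96% of them in control G1 (5 of 169 UMIs) and 26.6% in TGR G1 (158 of 595), and Hist1h1c was 16.0% and 25.7%. In S cells Hist1h1b was 32.8% of linker UMIs in control and 27.0% in TGR. The make-up in G1 depends on the phase calls. On unthinned calls, control G1 UMIs of Hist1h1e, Hist1h1c, Hist1h1b, Hist1h1d, H1f0 and Hist1h1a were 14, 14, 11, 8, 4 and 2. In TGR G1 they were 158, 125, 21, 14, 152 and 13, so that Hist1h1c was a near equal part in both libraries. Whether the step of a gene differs between the libraries was not tested.

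Cells were also ordered by their S phase score alone. From the lowest to the highest of 8 score bins, the replication-dependent sum went from 628 CPM (552 to 712; 100 cells) to 953 CPM (866 to 1047; 100 cells) in control. In TGR it went from 171 CPM (155 to 189; 408 cells) to 350 CPM (283 to 428; 40 cells). It was higher in each next bin in TGR but not in control, where the third bin was at 792 CPM and the fourth at 711. The highest TGR bin thus stayed below the lowest control bin. The replacement sum went from 5758 to 7286 CPM in control and from 3066 to 4845 CPM in TGR.

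**Figure D3:**
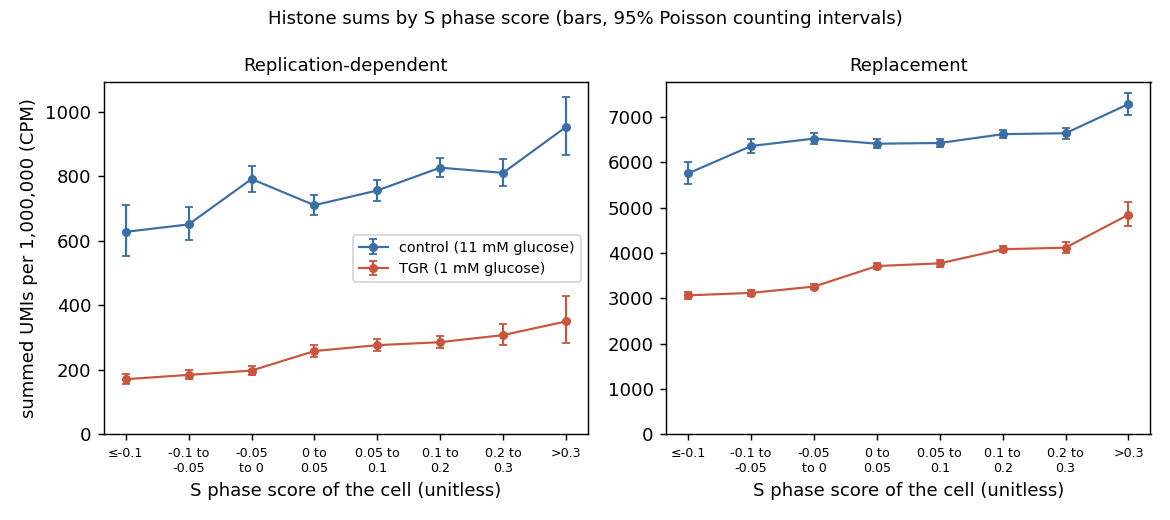
Summed CPM of replication-dependent (left) and replacement (right) histone genes in cells grouped by S phase score; blue is control, red TGR, bars are 95% Poisson counting intervals. In both panels every TGR point lies below every control point, with 350 CPM in the highest TGR bin against 628 CPM in the lowest control bin on the left.

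Most cells carried only a few UMIs of replication-dependent genes. After thinning to 1500 UMIs, 62.0% (60.2 to 63.7%) of control and 27.4% (25.7 to 29.2%) of TGR cells had at least 1; without thinning the shares were 85.6% and 68.1%, at median depths of 4101 and 6266 UMIs. By phase the thinned shares were 44.8% in G1, 64.0% in S and 62.3% in G2/M in control, and 20.4%, 29.0% and 39.6% in TGR. Replacement UMIs were found in 98.3 to 100% of thinned cells in every phase of both libraries. No other cell type was present to read the level of free RNA from, so cells without replication cannot be told from cells with background UMIs by these shares.

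The replacement genes had distinct phase profiles. H2afx was at 64.6, 96.8 and 213 CPM in control G1, S and G2/M, and at 35.6, 101 and 199 CPM in TGR, so that it was near level between the libraries in S and G2/M cells. On unthinned calls it was near level in G1 as well, at 23.2 CPM in control (7 UMIs) and 24.0 in TGR. H2afv was at 449, 437 and 558 CPM in control and at 225, 508 and 705 CPM in TGR, lower in TGR in G1 and higher in S and G2/M. H2afz was at 1765, 2521 and 2511 CPM in control and at 651, 1127 and 1224 CPM in TGR, lower in each phase. From G1 to S, H2afv was 2.26-fold higher in TGR (2.13 to 2.39) and 0.97-fold in control (0.86 to 1.11), H2afx 2.85-fold and 1.499-fold, and H2afz 1.73-fold and 1.43-fold. On unthinned calls the folds in TGR and control were 2.76 and 1.10 for H2afv, 3.87 and 3.56 for H2afx, and 2.02 and 2.28 for H2afz, so that the order of the libraries turned for H2afz. H2afj, H2afy and H3f3a lay within 1.09-fold between G1 and S in both libraries; on unthinned calls H2afj was 0.85-fold and H3f3a 1.25-fold in control. H1f0 was at 22.2, 20.1 and 24.2 CPM in TGR, and at 8.28, 34.1 and 42.4 CPM in control, the first resting on 5 UMIs. Its fold from G1 to S was 4.12 (1.73 to 12.8) in control and 0.90 (0.72 to 1.14) in TGR, and on unthinned calls 2.06 (0.79 to 7.67) and 0.73 (0.58 to 0.93).

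**Figure D4:**
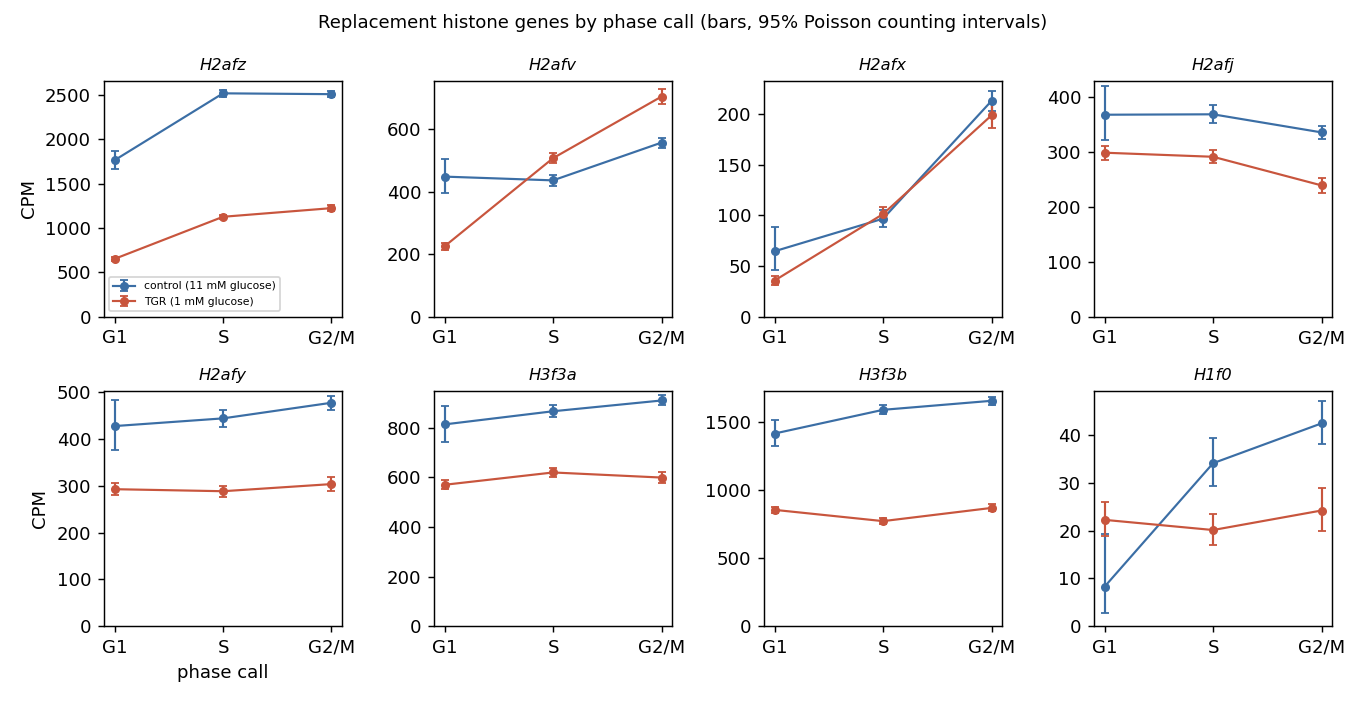
CPM of the 8 replacement histone genes with at least 10 CPM, by phase call; blue is control, red TGR, bars are 95% Poisson counting intervals and each panel starts at 0. The H2afx lines meet in S and G2/M (213 and 199 CPM in G2/M), the H2afv lines cross, and the H2afz lines stay apart.

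Members were then grouped by the annotated end of their message, a grouping made after the values were seen. Of the 45 with a stem-loop, 22 had at least 100 annotated bases after it (extended) and 23 had fewer (short). The short group was 3.86-fold lower in TGR (217 and 56.1 CPM, log2 −1.95, −2.05 to −1.85). The extended group was 2.69-fold lower (360 and 134 CPM, −1.43, −1.49 to −1.36), and the 22 without a match were 4.24-fold lower (182 and 43.0 CPM, −2.08, −2.20 to −1.97). Single genes weigh heavily in these sums. In control, Hist1h1b held 1938 of the 2685 UMIs of the group without a match. Hist1h2ap held 1388 of the 3191 of the short group, and Hist1h1e 1987 of the 5300 of the extended group. Extended members held 46.5% of the replication-dependent UMIs in control and 57.0% in TGR. Of the extended members 13 had the poly(A) signal AATAAA after the loop, among them Hist1h1c, Hist1h1d, Hist3h2a and Hist3h2ba, and 9 did not, among them Hist1h1e, Hist1h4d and Hist1h4i.

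Summed, the members with AATAAA were level between S and G1, and the other groups of annotated members were higher in S. With AATAAA the log2 ratio of S over G1 was −0.20 (−0.52 to 0.14) in control and −0.03 (−0.24 to 0.18) in TGR. In the short group it was 0.76 (0.43 to 1.12) and 1.33 (1.08 to 1.59). Extended members without AATAAA were at 0.63 (0.32 to 0.96) and 0.46 (0.29 to 0.64). Those without a stem-loop match were at 0.61 (0.27 to 0.98) and 1.26 (0.98 to 1.55). The 2 members that the annotation does not hold, Hist1h2bh and Hist1h2bm, were at −0.12 (−1.13 to 1.06) and 1.22 (0.03 to 2.65). On unthinned phase calls, added after the data were seen, the group with AATAAA was at 0.32 (−0.20 to 0.89) in control and −0.08 (−0.31 to 0.14) in TGR, and the short group at 1.83 and 1.92. The level sum was not shared by all members with AATAAA. In TGR, Hist1h1c, Hist3h2ba and Hist3h2a held 153, 76 and 45 of the 363 UMIs in G1, and 144, 58 and 23 of the 389 in S. Other members had more UMIs in S, such as Hist1h1d (20 in G1 and 47 in S; 2.82 and 6.06 CPM), Hist2h4 (16 and 31) and Hist1h2be (11 and 20). The tail of each captured molecule was not measured.

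**Figure D5:**
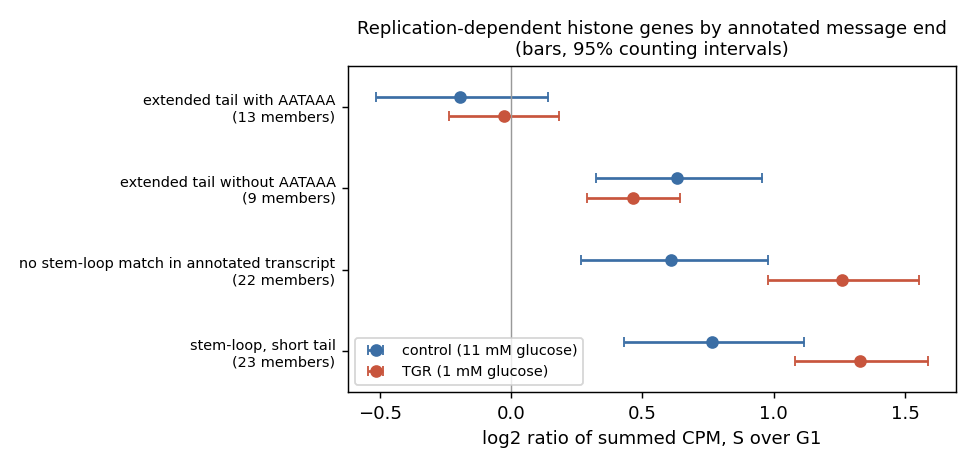
Log2 ratio of summed CPM in cells called S over cells called G1, for replication-dependent genes grouped by the annotated end of the message; blue is control, red TGR, bars are 95% counting intervals. The sum of the 13 members with an extended tail and AATAAA lies at 0 within its interval in both libraries, and the sum of the 23 with a short tail lies above it (0.76 and 1.33).

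The 250 bases before the start of Hist1h1a, Hist1h1b and Hist1h1e are shown, and those of the other linker genes are not. All 5 detected replication-dependent linker genes were lower in TGR, though by unlike amounts (log2 from −2.76 to −1.24). The bases are from RefSeq (GRCm38.p6), where 74 of the 85 members matched. Capitals mark matches, on either strand, of the CCAAT box (CCAAT), of the TATA box in its strict form (TATAAA) and of a short element of H1 promoters known as the H1 box (AAACACA). The windows are chr13:23763418-23763667 (plus strand) for Hist1h1a, chr13:21780626-21780875 (minus) for Hist1h1b and chr13:23622559-23622808 (minus) for Hist1h1e.
Hist1h1a: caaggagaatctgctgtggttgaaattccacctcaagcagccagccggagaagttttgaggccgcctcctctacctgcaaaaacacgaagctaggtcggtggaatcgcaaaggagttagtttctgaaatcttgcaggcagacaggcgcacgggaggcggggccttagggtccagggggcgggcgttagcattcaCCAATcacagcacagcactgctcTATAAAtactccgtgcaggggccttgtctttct
Hist1h1b: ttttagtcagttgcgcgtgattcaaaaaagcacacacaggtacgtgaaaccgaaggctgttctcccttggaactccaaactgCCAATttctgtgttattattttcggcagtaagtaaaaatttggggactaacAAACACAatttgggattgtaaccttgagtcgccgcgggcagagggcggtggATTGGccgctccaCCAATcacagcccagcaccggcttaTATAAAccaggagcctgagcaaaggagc
Hist1h1e: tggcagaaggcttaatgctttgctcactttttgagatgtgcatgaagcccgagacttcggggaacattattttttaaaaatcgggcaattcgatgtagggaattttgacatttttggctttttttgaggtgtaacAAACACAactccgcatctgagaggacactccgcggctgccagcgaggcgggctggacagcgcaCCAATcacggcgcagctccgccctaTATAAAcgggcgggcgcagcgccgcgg
In windows of 300 bases, 250 before and 50 after the start, TATAAA was found on either strand in 57.4% of 61 replication-dependent promoters, in 7.14% of 14 replacement promoters and in 13.6% of all 32851. CCAAT was found in 85.2%, 64.3% and 37.4%. Of the 6 replication-dependent H1 promoters, 4 had TATAAA. The H1 box was found in 5 of the 6 and in 7.18% of all promoters. Hist1h1a was the 1 without that match, by 1 letter, since its bases shown above hold aaacacg. These are matches of letters and not sites of binding.

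Genes that act on histones and their messages are set beside the same shares of all genes, 21.9% called lower and 9.33% called higher. Of 20 scored genes of histone message processing, 7 were called lower and 0 higher, with a median log2 ratio of −0.38 beside −0.16 for all genes. These lists overlap those that called the phases, with Slbp, Casp8ap2 and Nasp among the S phase genes and Cenpa and Hmgb2 among the G2/M genes. Slbp, which binds the stem-loop, was at 170 CPM in control against 99.6 in TGR, 1.71-fold lower (1.61 to 1.81). In S cells, which were chosen in part by Slbp itself, it was at 199 and 132 CPM. Npat, the cyclin E substrate that activates histone transcription, was at 13.4 and 12.3 CPM, within counting error. Casp8ap2, which encodes the histone locus body protein FLASH, was at 75.9 and 47.4 CPM, 1.60-fold lower, and Ccne1, the gene of cyclin E1, at 47.3 and 26.9 CPM, 1.76-fold lower. Ncbp2, a cap-binding subunit, was at 59.3 and 26.1 CPM. Fip1l1, a polyadenylation factor, was at 72.4 and 89.0 CPM, 1.23-fold higher (1.14 to 1.33).

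Of 36 scored genes of histone chaperones and exchange, 16 were called lower and 1 higher, beside 21.9% and 9.33% of all genes, with a median of −0.51. Nasp, a chaperone of H3 and H4, was at 104 and 52.9 CPM, 1.96-fold lower (1.81 to 2.12). Asf1b, another H3 and H4 chaperone, was at 85.5 and 28.5 CPM, 3.00-fold lower (2.71 to 3.32). The abundant chaperone genes Set (701 and 363 CPM) and Anp32b (1041 and 687 CPM) were 1.93-fold and 1.51-fold lower. Cenpa, the centromeric H3 variant whose symbol falls outside the histone naming rule, was at 368 and 108 CPM, 3.43-fold lower (3.26 to 3.605). All 7 scored genes of chromatin HMG proteins, which bind nucleosomes beside H1, were called lower, beside 21.9% of all genes, with a median of −1.26. Hmgb2 was at 1577 and 652 CPM, Hmgb1 at 620 and 259 CPM, Hmgn5 at 72.9 and 28.9 CPM and Hmgn3 at 10.7 and 1.57 CPM.

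Likeness to the replication-dependent sum was read as Pearson's r over the 6 groups of library and phase, among 2297 other genes with at least 50 CPM. The 5 most alike were Rtf1 (0.997), Ddx42, Uchl5, Dnajc8 and Hmgb1 (0.995). Hmgb1 went from 482, 610 and 637 CPM in control G1, S and G2/M to 176, 292 and 326 CPM in TGR. With 6 groups from 2 libraries these values describe a shared order only.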

How the data were processed

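Single-cell RNA of 1 control and 1 TGR culture was read with 10x v2 chemistry. The deposited matrices hold whole-number UMI counts per gene and barcode; the submitters' processing notes name Cell Ranger 2.2, Seurat 3 and mm10, and counting settings are not given in the sources used here. Cells with at least 500 genes and under 10% mitochondrial UMIs were kept; their library sums of 14730128 and 19696068 UMIs set the precision. UMIs were summed per library and scaled to CPM. The log2 ratio of TGR over control had 0.5 UMI added, and the 95% bounds were exact binomial (Clopper-Pearson) bounds on how a gene's UMIs split between the libraries. UMIs of a gene within a culture are not replicates, so these intervals, and Poisson intervals of single levels, cover counting error only.

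Genes were scored at 10 CPM or more in either library. Phases were called with scanpy 1.11.5 on cells thinned to 1500 UMIs. The ratio was run on simulated Poisson counts drawn from the control profile. Those share the assumption of the intervals, so the run does not cover variation between cultures. The alternatives were edgeR 4.0.16 and DESeq2 1.42.0 scaling factors, other totals, cell filters, phase calls and limits. The members, the gene lists and the rules were chosen with earlier results of these data known. Members with at least 25 CPM were named in full and those from 10 to 25 CPM by range. From each other list came the 2 scored genes with the highest mean level, the 2 with the largest absolute ratio, and Slbp, Npat, Casp8ap2, Nasp and Cenpa. The 5 genes most alike completed the rule. Protein sequences were not used here.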

Additional observations from a re-analysis of the deposited data

Results flagged for a closer look

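The 209 control barcodes left out for their mitochondrial share carried histone messages that no comparison used. Their replication-dependent sum was 931 CPM (836 to 1034; 348 UMIs) and their replacement sum 3915 CPM (3717 to 4121; 1463 UMIs). The kept control cells were at 773 and 6514 CPM, so the removed barcodes were higher for the replication-dependent class and lower for the replacement class. The 2 removed TGR barcodes had 0 and 14 UMIs of the 2 classes.

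H3f3b, one of the genes of H3.3, went in opposite directions from G1 to S. The log2 ratio of S over G1 was 0.17 in control (0.07 to 0.27) and −0.15 in TGR (−0.20 to −0.10). With 1 library each, this difference was not tested. On unthinned phase calls the values were 0.44 and −0.22.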

How the results depend on the processing

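No paired analysis was possible because there was 1 library per condition. Between the libraries, no CPM sum or count changed direction under the alternatives run. Of the named genes past 10 CPM, H2afv did over all cells, and H2afx did in G1 cells on unthinned phase calls. Counted per cell within a phase, the replacement sum in S and G2/M and H4 in G2/M did, as given with their values. Below 10 CPM, the log2 ratio of H1fx went from 0.21 to −0.67 in thinned cells. That of H3f3aos went from −0.04 to 0.18 with totals without ribosomal protein and mitochondrial genes. On unthinned phase calls the S over G1 log2 ratio of the members with AATAAA went from −0.20 to 0.32 in control. There Hist1h1c went from 0.08 to −0.04, Hist1h1d from −0.38 to 0.07, H2afy from 0.05 to −0.04, H2afv from −0.04 to 0.14 and H2afj from 0.003 to −0.23. In TGR H2afy went from −0.02 to 0.08, H2afj from −0.04 to 0.01, Hist2h2ac from −0.31 to 0.47 and Hist1h2ae from 0.32 to −0.06. The counting intervals of all these S over G1 values include 0. Between TGR and control, totals without ribosomal protein and mitochondrial genes gave log2 ratios of −1.49 for the replication-dependent sum, −0.64 for replacement, −1.77 for linker, −1.27 for core and −1.41 for the replication-dependent sum within S. With TMM and DESeq2 factors the replacement ratio was −0.83 and −0.86. In cells of 3000 to 8000 UMIs the replication-dependent, replacement and core ratios were −1.78, −0.83 and −1.62, replication-dependent minus replacement was −0.95, linker minus core −0.36, and S over G1 in TGR 0.78. Sums of thinned cells gave −1.78 for the replication-dependent sum, −2.11 for linker genes and 0.72 for S over G1 in control. S over G1 was 1.28 in control and 0.82 in TGR on unthinned phase calls, and 1.30 and 0.88 with a score gap. Without the most abundant member the replacement and core ratios were −0.65 and −1.35, replication-dependent minus replacement −1.04 and linker minus core −0.72. With the control phase mix the replication-dependent, replacement, linker and core ratios were −1.42, −0.72, −1.69 and −1.20. The count of replication-dependent members lower was 45 of 65 with no minimum level, beside 12.5% of all genes. With a minimum of 50 CPM only Hist1h1e, Hist1h1b and Hist1h2ap were scored, and these 3 were all lower. The share of all genes at that minimum was not computed. The other 62 values of these results moved by less than their counting error, or for counts by under 1.5 times; alternatives that left out shared barcodes, cells over 5% mitochondrial UMIs or cells without a CD3 or CD8 UMI were among them. The cause of the moves was not tested. Depth limits the single members most: 54 of 69 replication-dependent members were under 10 CPM in both libraries.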
